A study of Homo sapiens with 8 samples.

Results

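Genes whose symbol names a solute carrier (SLC) family were examined in 4 human multiple myeloma cell lines. They were chosen by symbol and by brightness: rows with exactly 1 platform symbol that begins with SLC and a family number, with the brightest row kept for each gene, whose mean intensity over the 8 arrays was at least 47. Of 37 such genes with a named row, 28 met the limit and 9 did not, among 14812 named genes in the series. Of the 28, 21 encode carrier proteins or a carrier subunit. The other 7 only carry an SLC name: SLC2A4RG encodes a transcription factor that binds the promoter of a glucose carrier gene, and SLC9A3-OT1, SLC25A25-AS1, SLC25A21-AS1, SLC25A5-AS1, SLC2A1-DT and SLC26A4-AS1 are long noncoding RNAs named for a neighbouring carrier gene. The label of expressed transporters therefore fits 21 of the 28 members, and the values carry no detection calls, so whether a dim gene rose above the array background cannot be said. The best known carriers, such as the large glucose, amino acid and monocarboxylate families, were not among the named rows and are not analysed here: 23 of the 386 protein-coding SLC genes in the RefSeq table had a named row.

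The groups were ShMI, in which the short isoform MMSET I of the histone methyltransferase gene NSD2 was knocked down, and control. There was 1 ShMI and 1 control array from each of the lines KMS11, KMS18, KMS34 and OPM2, so that each group had 4 arrays and each line 2. All 4 lines carry the t(4;14) translocation and all cultures were exposed to lentivirus in 8 µg/mL polybrene, the controls as well as far as the labels tell. The medium was replaced 24 h after infection and RNA was taken 48 h later, and the design text speaks of 72 h with shRNAs for the KMS11 cells. Neither the shRNA sequence nor the kind of control was given in the sources used here. Nothing states that the 2 arrays of a line come from independently grown stocks, so p-values measure only the spread between these arrays.

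Solute carriers are membrane proteins that move nutrients, ions and metabolites across the plasma membrane or organelle membranes without hydrolysing ATP themselves. The members here are mostly of the less studied kind: relatives of the major facilitator superfamily that recently received SLC numbers, PQ-loop proteins, relatives of the nucleotide sugar transporters, and the mitochondrial ornithine carriers. Myeloma cells are malignant plasma cells that secrete or retain large amounts of immunoglobulin.

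Of 11 plasma cell markers, 8 had a named row (SDC1, XBP1, IRF4, CD38, SLAMF7, MZB1, POU2AF1 and CD27), with values from 50.6 to 4673 over the 8 arrays and summed levels of 7910.5 to 11345 in ShMI arrays and 8197 to 10954 in control arrays. The named markers of other cells ranged from 44.1 to 91.6 for B cells (2 genes), 42.2 to 104 for T and NK cells (4), 28.2 to 119 for myeloid cells (4) and 22.8 to 62.3 for stromal and endothelial cells (2). NSD2 was lower with the knockdown in 4 of 4 lines by a mean log2 difference of -0.18 (limma, adjusted p = 0.471), on a row for the whole gene, and whether its probes separate MMSET I from longer isoforms was not tested. GLO1, the gene in the series title, differed by -0.76 (limma, adjusted p = 0.00142).

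Promoter sequences could be matched in the RefSeq table of GRCh38.p14 for 23 of the 28 members, 16 of them carriers. Of these, 3 are printed. SLC25A15 and SLC49A4 were picked as among the carriers with the widest spans between lines. SLC75A1 was picked for 1 line, KMS11, past all 3 of its contrasts. Other members had such a line too, among them SLC66A1 with KMS11 and SLC71A1 with KMS34. Printed are the 250 bases upstream of the listed start, with the GC box (GGGCGG or its reverse complement CCGCCC, the binding motif of SP1) in capitals. The first is at chr13:40789361-40789610 on the plus strand, the second at chr3:122794819-122795068 on the plus strand, and the third, 1 of 2 listed starts of its gene, at chr4:2934826-2935075 on the minus strand.
SLC25A15: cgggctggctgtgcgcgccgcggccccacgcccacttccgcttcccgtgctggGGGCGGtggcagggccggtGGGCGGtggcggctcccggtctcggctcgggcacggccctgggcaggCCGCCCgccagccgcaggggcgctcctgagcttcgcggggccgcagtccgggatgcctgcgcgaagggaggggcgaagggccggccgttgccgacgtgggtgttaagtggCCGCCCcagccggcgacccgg
SLC49A4: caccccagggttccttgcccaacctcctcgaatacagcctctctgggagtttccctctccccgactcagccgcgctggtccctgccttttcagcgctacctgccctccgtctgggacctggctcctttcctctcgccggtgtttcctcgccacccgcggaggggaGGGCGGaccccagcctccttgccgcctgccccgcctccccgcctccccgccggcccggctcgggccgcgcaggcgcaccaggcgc
SLC75A1: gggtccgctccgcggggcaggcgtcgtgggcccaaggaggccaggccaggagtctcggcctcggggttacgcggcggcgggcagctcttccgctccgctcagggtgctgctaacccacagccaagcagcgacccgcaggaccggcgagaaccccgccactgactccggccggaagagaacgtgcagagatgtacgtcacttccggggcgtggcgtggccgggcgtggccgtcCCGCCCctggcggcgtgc
They hold 4, 1 and 1 GC boxes in this order and are 79.6%, 72.4% and 73.6% G and C. Within the upstream 250 bases on either strand, the GC box occurred in 19 of the 23 matched members, against 61% of the 12023 promoters of tested genes. The E-box CACGTG, which MYC and the lysosomal regulator TFEB can bind, occurred in 1 member (SLC60A2), against 8.24% of those promoters. CCAAT occurred in 5 members (32.4%), TATAAA in 2 (6.15%), TGACGT in 2 (8.88%) and TGATGNAA, the motif of ATF4 targets, in 1, SLC51B (1.71%). No member held both CACGTG and TGACGT, which can overlap. These matches describe the letters in this window. A member counts once if any of its listed starts held the motif, while the percentages count every promoter, so the units differ. The median share of G and C was 72.6% over the 26 promoters of members and 64% over the 12023 of tested genes.

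The intensities of the 28 members spanned a wide range. SLC71A2 and SLC71A1, major facilitator proteins also called MFSD14B and MFSD14A, were the brightest, with means of 874 and 724 over 8 arrays, above 97% and 96% of all named genes. The next in order were SLC35F6 (349.8), SLC75A1 (339) and SLC38A12 (292). Brightness chose the members, so these levels are a description, and levels of different rows depend on their probes and do not rank the genes by RNA amount. The members just inside the limit were SLC26A4-AS1 (mean 50.2), SLC51B (55.5) and SLC2A1-DT (59.9), and just outside were SLC20A1-DT (46.1), SLC51A (41.2) and SLC39A12-AS1 (32.8). SLC51A and SLC51B encode the 2 subunits of 1 organic solute exporter, and they fell on either side of the limit. All 28 members also passed the filter of the tests, and 27 had 8 of 8 arrays at 47 or above. SLC26A4-AS1 did not, with 46.7 in the KMS11 ShMI array. Of the 28, 21 were brighter than the median named gene (87.3).

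**Figure D1:**
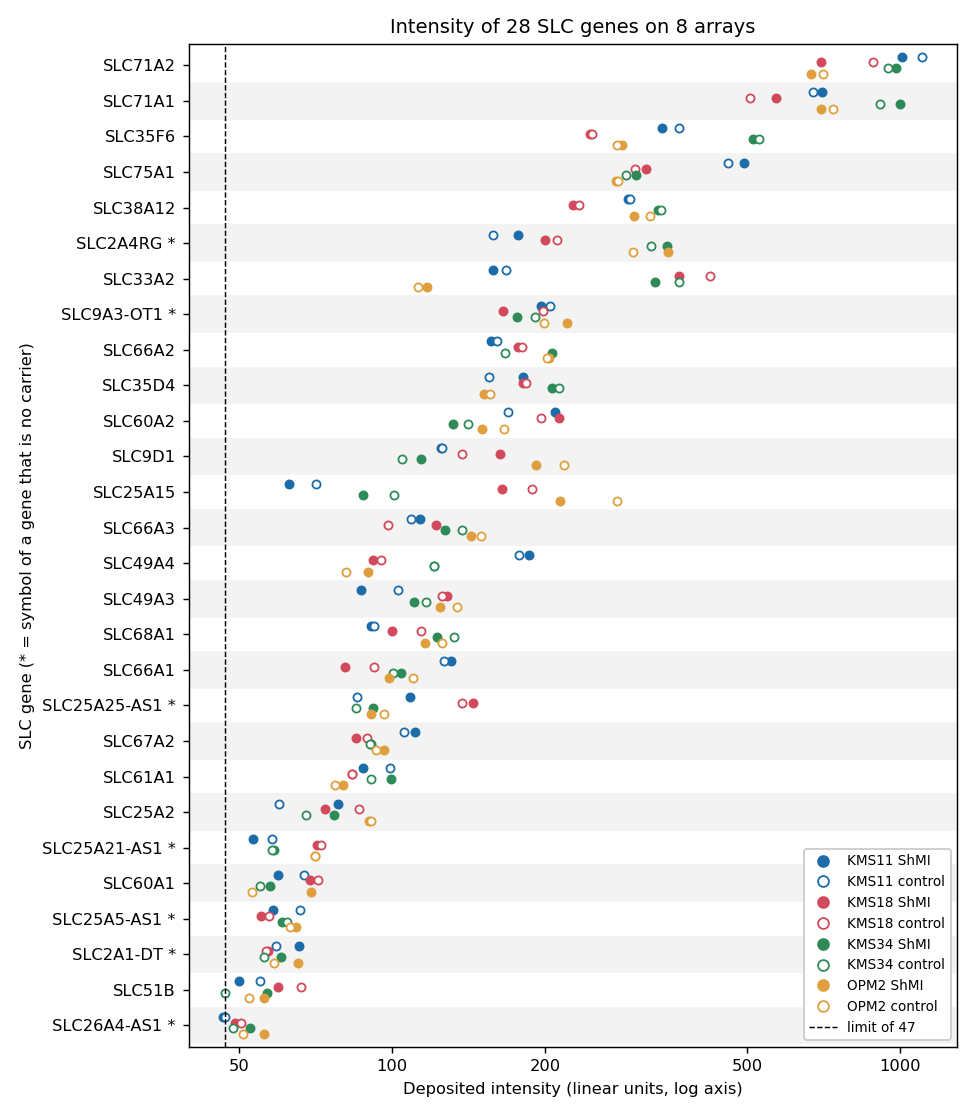
Each row is an SLC gene and each point the deposited intensity of 1 array on a log axis, with filled points for ShMI and open points for control, coloured by line. The dashed line marks the limit of 47. The 2 points of a line lie close together for most genes, while lines stand apart for several, among them SLC25A15, SLC33A2, SLC49A4, SLC35F6, SLC2A4RG and SLC75A1.

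The levels of the members differed between lines about as often as those of other genes. The 4 lines were compared with limma's moderated F test on log2 intensities, with ShMI or control as an additive term and Benjamini-Hochberg adjustment over 11109 tested genes. At an adjusted p under 0.05, 21 of the 28 members passed, against 75.7% of all tested genes. Of the 21 carriers 18 passed, and of the 7 other symbols 3 passed. Of the 14 brighter members 13 passed and of the 14 dimmer 8. The median span of the 4 line means was 0.47 log2 units among members and 0.52 among all tested genes. In 5 members, or 17.9%, the line means spanned at least 2-fold, against 18.9% of all tested genes: SLC25A15, SLC33A2, SLC49A4, SLC35F6 and SLC2A4RG. That count was 3 without KMS11, without KMS34 or with quantile normalization. In 0 members did 1 line stand at least 2-fold above, or at least 2-fold below, each other line and pass all 3 of its contrasts (limma), against 3.33% and 2.57% of all tested genes. By line, these shares of all tested genes, above and below, were 1.58% and 0.225% for KMS11, 0.45% and 0.927% for KMS18, 0.873% and 0.324% for KMS34, and 0.432% and 1.09% for OPM2. In RNA from whole cultures, fewer cells with a transcript and less RNA per cell cannot be told apart. The highest line varied: the highest mean was in OPM2 for 9 members, in KMS34 for 7, and in KMS11 and KMS18 for 6 each. As shares these were 32.1%, 25%, 21.4% and 21.4% of the members, against 25.4% for OPM2, 23.1% for KMS34, 27.8% for KMS11 and 23.8% for KMS18 over all tested genes.

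Contrasts between pairs of lines passed for 3 to 9 members in a direction. KMS11 was higher than OPM2 in 7 members and lower in 9 (adjusted p under 0.05), against 29.8% and 24.9% of all tested genes. KMS11 was higher than KMS18 in 8 and lower in 7, against 32.5% and 24%. It was higher than KMS34 in 5 and lower in 8, against 23.1% and 19.1%. KMS18 was higher than KMS34 in 6 and lower in 7, against 19.8% and 27.7%. Set against OPM2, KMS18 was higher in 3 and lower in 7 (17.5% and 21.4%), and KMS34 higher in 7 and lower in 4 (26.8% and 23.1%). These contrasts share their lines and 1 estimate of the spread.

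**Figure D2:**
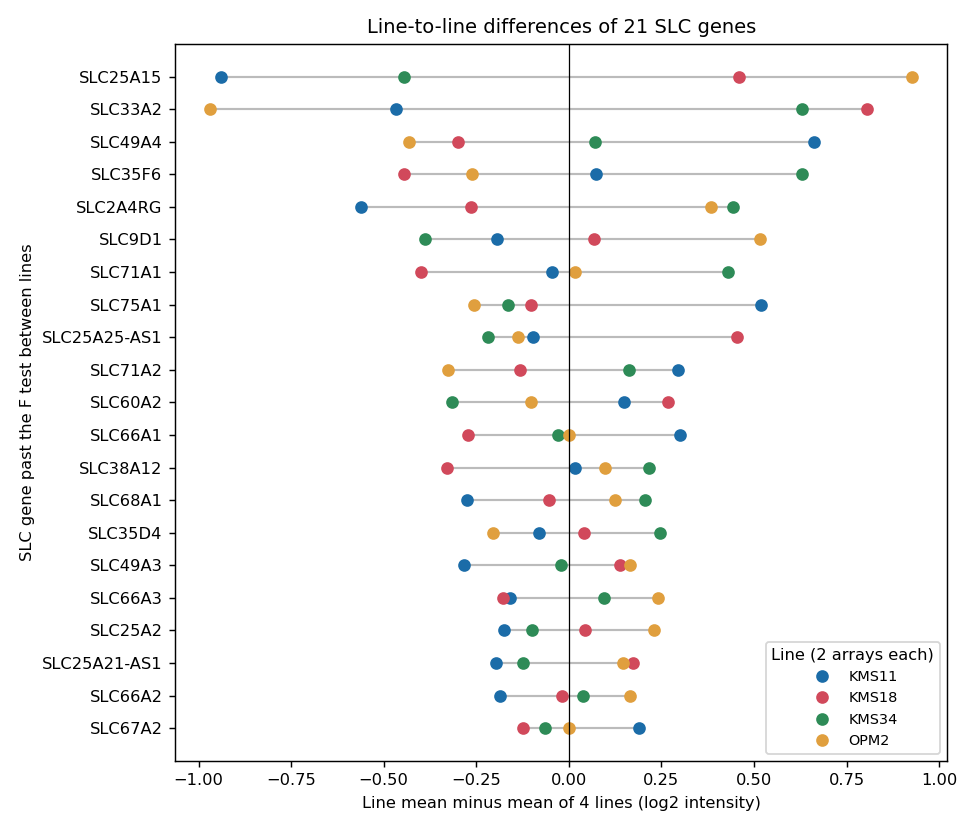
For the 21 SLC genes past the F test, points give each line's mean of 2 arrays minus the mean of the 4 lines in log2 intensity, sorted by span. SLC25A15 has the widest span, 1.87 log2 units, with OPM2 at the top and KMS11 at the bottom, and SLC33A2 the next, with KMS18 and KMS34 high and OPM2 lowest.

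Among the mitochondrial ornithine carriers, SLC25A15 encodes the carrier that exchanges ornithine for citrulline across the inner mitochondrial membrane and is mutated in a hereditary disorder with high ornithine and ammonia. It had the widest line-to-line span of the members. SLC25A15 had an intensity of 62.8 for KMS11, 165 for KMS18, 87.7 for KMS34, and 214 for the OPM2 line in the ShMI arrays, against 71 for KMS11, 189 for KMS18, 101 for KMS34, and 277 for OPM2 in the control arrays. Both OPM2 arrays were above all others, followed by KMS18, KMS34 and KMS11, and no 2 lines overlapped. The mean in OPM2 was 3.65-fold that in KMS11 (limma contrast, adjusted p = 7.43e-09). Each step of the order passed: OPM2 over KMS18 (1.38-fold, adjusted p = 0.00113), KMS18 over KMS34 (1.87-fold, 5.41e-06) and KMS34 over KMS11 (1.41-fold, 7.50e-04). For SLC25A15 6 of 6 contrasts passed, and the share of all tested genes with 6 of 6 was not counted. RefSeq lists pseudogenes of SLC25A15, so that part of the signal may be shared with near-identical copies.

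SLC25A2, a closely related ornithine carrier, was dimmer and showed a narrower span. SLC25A2 had an intensity of 78.2 for KMS11, 73.9 for KMS18, 76.8 for KMS34, and 90.3 for the OPM2 line in the ShMI arrays, against 60.1 for KMS11, 86 for KMS18, 67.9 for KMS34, and 91.2 for OPM2 in the control arrays. The order of the lines was the same as for SLC25A15, but neighbours in it did not pass (adjusted p = 0.279 to 0.673). OPM2 over KMS11 was 1.32-fold (adjusted p = 0.0158), and the F test passed narrowly (adjusted p = 0.0432). With quantile normalization, with no filter or without OPM2, the F test of SLC25A2 did not pass.

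SLC33A2, also called MFSD3, stands in the family of the acetyl-CoA transporter of the endoplasmic reticulum. It split the lines into a higher and a lower pair. SLC33A2 had an intensity of 158 for KMS11, 366 for KMS18, 329.8 for KMS34, and 117 for the OPM2 line in the ShMI arrays, against 168 for KMS11, 421 for KMS18, 368 for KMS34, and 113 for OPM2 in the control arrays. The 4 arrays of KMS18 and KMS34 all exceeded the 4 of KMS11 and OPM2. The contrast of KMS18 and KMS34 did not pass (1.13-fold, adjusted p = 0.147). KMS34 was 2.14-fold above KMS11 (adjusted p = 1.48e-06) and KMS11 1.42-fold above OPM2 (7.38e-04), so that KMS18 exceeded OPM2 3.42-fold (limma contrast, adjusted p = 2.03e-08).

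The SLC49 family relatives SLC49A4 and SLC49A3 had opposite places for KMS11. SLC49A4, a lysosomal membrane carrier also called DIRC2, was highest in KMS11. SLC49A4 had an intensity of 186 for KMS11, 91.8 for KMS18, 121 for KMS34, and 89.7 for the OPM2 line in the ShMI arrays, against 178 for KMS11, 95.2 for KMS18, 121 for KMS34, and 81.2 for OPM2 in the control arrays. Both KMS11 arrays exceeded the other 6, which ranged from 81.2 to 121. KMS11 was 1.5-fold above KMS34 (adjusted p = 1.87e-04) and KMS34 1.29-fold above KMS18 (0.00479), while the contrast of KMS18 and OPM2 did not pass (0.293). Between KMS11 and OPM2 the fold was 2.13 (limma contrast, adjusted p = 8.32e-07). SLC49A3, also called MFSD7, was lowest in KMS11: OPM2 averaged 129, KMS18 127, KMS34 114 and KMS11 94.9 over the 2 arrays of each line. KMS34 over KMS11 passed for SLC49A3 (adjusted p = 0.0391) and the steps above it did not. Without KMS11 its F test did not pass.

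Relatives of the nucleotide sugar transporters were highest in KMS34. SLC35F6, also known as a binding partner of an adenine nucleotide carrier of mitochondria, was the more variable. SLC35F6 had an intensity of 339 for KMS11, 246 for KMS18, 512 for KMS34, and 283 for the OPM2 line in the ShMI arrays, against 368 for KMS11, 247 for KMS18, 526 for KMS34, and 277 for OPM2 in the control arrays. Both KMS34 arrays exceeded the other 6. KMS34 was 1.47-fold above KMS11 (adjusted p = 2.40e-04) and KMS11 1.26-fold above OPM2 (0.00667). The contrast of OPM2 and KMS18 did not pass (0.125), and KMS34 over KMS18 was 2.11-fold (limma contrast, adjusted p = 8.87e-07). SLC35D4, also called TMEM241, averaged 210.1 in KMS34, 182 in KMS18, 168 in KMS11 and 154 in OPM2. For SLC35D4 no neighbours in this order passed, and KMS34 over OPM2 was 1.37-fold (adjusted p = 0.00194). Its F test did not pass without KMS34.

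Among the major facilitator relatives, SLC75A1, an organic anion transporter also called MFSD10 or TETRAN, stood out in KMS11. SLC75A1 had an intensity of 492 for KMS11, 317 for KMS18, 301 for KMS34, and 276 for the OPM2 line in the ShMI arrays, against 458 for KMS11, 300.4 for KMS18, 289 for KMS34, and 278 for OPM2 in the control arrays. The KMS11 arrays were above the other 6, which lay between 276 and 317. KMS11 exceeded KMS18 1.54-fold (limma contrast, adjusted p = 7.18e-05), and the contrasts among KMS18, KMS34 and OPM2 did not pass (adjusted p = 0.192 to 0.577). Without KMS11 its F test did not pass. SLC75A1 and SLC49A3 both lie near the tip of the short arm of chromosome 4. In GRCh38 order SLC75A1 is on the centromeric side of NSD2 and SLC49A3 on the telomeric side of FGFR3, the 2 genes brought under immunoglobulin control by the t(4;14) translocation. Neither adjoins them: many genes lie between, and the listed neighbour of SLC75A1 is ADD1.

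The paralogs SLC71A1 and SLC71A2 differed in their order of lines. SLC71A1 had an intensity of 703 for KMS11, 569 for KMS18, 998 for KMS34, and 698 for the OPM2 line in the ShMI arrays, against 672 for KMS11, 507 for KMS18, 913 for KMS34, and 736 for OPM2 in the control arrays. KMS34 was 1.33-fold above OPM2 (adjusted p = 0.00279), the contrast of OPM2 and KMS11 did not pass (0.602), and KMS11 was 1.28-fold above KMS18 (0.00629). SLC71A2 had an intensity of 1008 for KMS11, 698 for KMS18, 981 for KMS34, and 667 for the OPM2 line in the ShMI arrays, against 1105 for KMS11, 883 for KMS18, 947 for KMS34, and 706 for OPM2 in the control arrays. For SLC71A2 the 4 arrays of KMS11 and KMS34 were above the 4 of KMS18 and OPM2. Of its neighbours only KMS34 over KMS18 passed (1.23-fold, adjusted p = 0.0318), and KMS11 over OPM2 was 1.54-fold (2.90e-04). Both genes are similar in sequence, so their rows may share some signal.

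**Figure D3:**
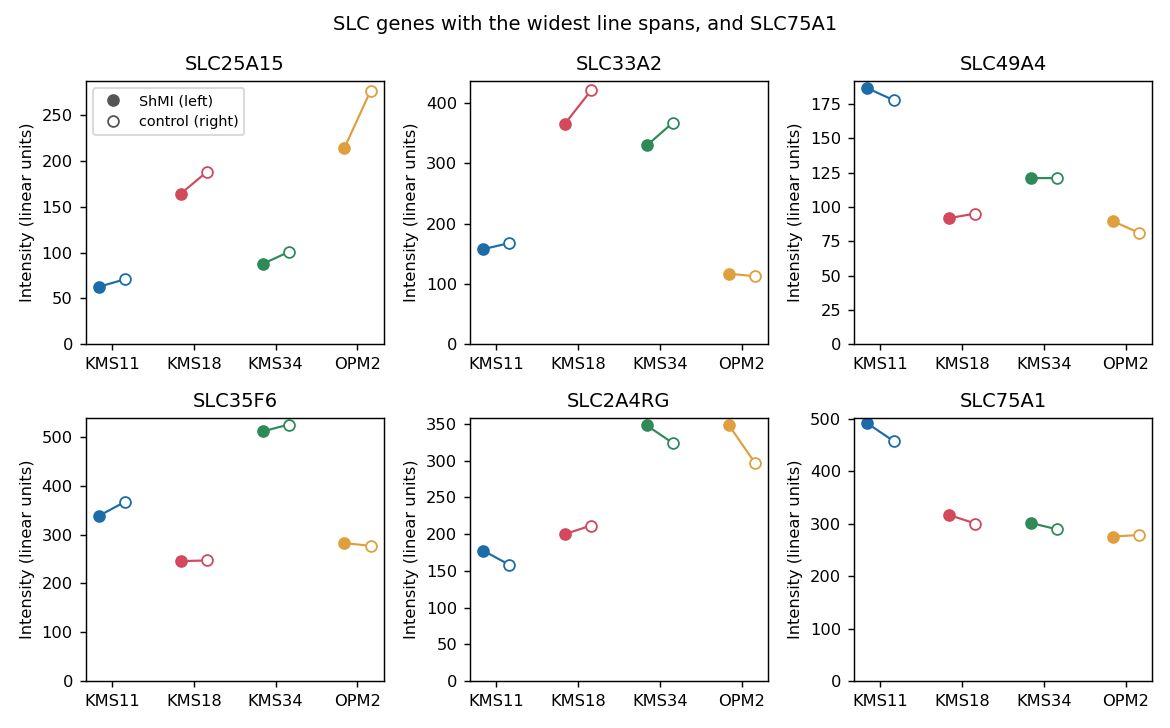
Each panel shows 1 gene, with the ShMI array (filled, left) and the control array (open, right) of each line joined by a line, on a linear intensity axis that begins at 0. SLC25A15 is lower in ShMI in each line, while the gaps between lines are wider than those between the 2 arrays of a line in most panels.

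SLC9D1, a relative of the sodium-proton exchangers also called TMCO3, averaged 205 for OPM2, 151 for KMS18, 125 for KMS11 and 109 for KMS34 over the 2 arrays of each line, a span of 1.87-fold. OPM2 exceeded KMS18 1.36-fold (adjusted p = 0.00494) and the steps below did not pass. SLC38A12, also called TMEM104 and placed with the neutral amino acid transporters, averaged 336 for KMS34, 310.0 for OPM2, 293 for KMS11 and 230.3 for KMS18. Of its neighbouring lines 1 pair passed, KMS11 over KMS18, at 1.27-fold (0.00472), and without KMS18 its F test did not pass. SLC60A2, known from rat as a sodium-dependent glucose transporter, averaged 205 for KMS18, 189 for KMS11, 158 for OPM2 and 137 for KMS34, with no step between neighbours past the threshold and KMS18 over KMS34 at 1.5-fold (0.00105). For its relative SLC60A1 the F test did not pass (adjusted p = 0.135), and its arrays ranged from 53 to 71.5. Without OPM2 it passed.

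The PQ-loop proteins of the SLC66 family each passed the F test with different orders of lines. SLC66A1, which exports cationic amino acids such as arginine and lysine from lysosomes, averaged 129 for KMS11, 105 for OPM2, 102 for KMS34 and 86.6 for KMS18. KMS11 exceeded OPM2 1.23-fold (adjusted p = 0.0192), and KMS11 exceeded KMS18 1.49-fold (3.11e-04). SLC66A3 averaged 147 for OPM2, 132 for KMS34, 111 for KMS11 and 110.2 for KMS18, and SLC66A2 202 for OPM2, 187 for KMS34, 179 for KMS18 and 159 for KMS11. OPM2, the highest line for both, exceeded the lowest 1.34-fold for SLC66A3 (adjusted p = 0.00785) and 1.27-fold for SLC66A2 (0.0123), and neither F test passed without OPM2. That of SLC66A2 (adjusted p = 0.0455) also did not pass without KMS11 or with no filter on dim genes.

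SLC68A1, a major facilitator protein also called MFSD13A, averaged 128 for KMS34, 121 for OPM2, 107 for KMS18 and 91.6 for KMS11, and KMS34 exceeded KMS11 1.39-fold (adjusted p = 7.82e-04). Without KMS11 its F test did not pass. SLC67A2, also called MFSD9, averaged 108 for KMS11, 94.9 for OPM2, 90.8 for KMS34 and 87.1 for KMS18. Its F test (adjusted p = 0.0292) did not pass under quantile normalization, median centring, the trended robust fit, or without KMS11 or KMS18. The molybdate transporter gene SLC61A1 (F test, adjusted p = 0.0568) and SLC51B, a subunit of the bile acid and steroid exporter (0.108), did not pass. SLC61A1 passed with quantile normalization, with the stricter filter on dim genes and without KMS11, and SLC51B passed with median centring.

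The 7 symbols that are no carriers were kept apart. SLC2A4RG had an intensity of 177 for KMS11, 200.1 for KMS18, 348 for KMS34, and 349 for the OPM2 line in the ShMI arrays, against 158 for KMS11, 212 for KMS18, 324 for KMS34, and 298 for OPM2 in the control arrays. The arrays of KMS34 and OPM2 were above those of KMS18 and KMS11. The contrast of KMS34 and OPM2 did not pass (adjusted p = 0.638), OPM2 was 1.57-fold above KMS18 (1.64e-04), and KMS18 was 1.23-fold above KMS11 (0.0206). Of the long noncoding RNAs, SLC25A25-AS1 averaged 141 for KMS18, 96.9 for KMS11, 93.7 for OPM2 and 88.5 for KMS34, with KMS18 1.46-fold above KMS11 (adjusted p = 8.39e-04), and without KMS18 its F test did not pass. SLC25A21-AS1 averaged 71.9 for KMS18, 70.5 for OPM2, 58.5 for KMS34 and 55.7 for KMS11, and OPM2 exceeded KMS34 1.21-fold (0.0221). The F test did not pass for SLC9A3-OT1, SLC25A5-AS1, SLC2A1-DT and SLC26A4-AS1 (adjusted p = 0.201 to 0.417), of which SLC9A3-OT1 passed with quantile normalization.

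The MMSET I knockdown was tested next, as ShMI minus control with the cell line as a block. In limma's test with Benjamini-Hochberg adjustment over 11109 genes, 0 of the 28 members were higher and 0 lower at an adjusted p under 0.05, against 0.018% and 0.099% of all tested genes. At an unadjusted p under 0.05 there was 1 member, SLC25A15, against 8.4% of all tested genes. The median log2 difference was 0.025 over the members and -0.0033 over all tested genes, and the median size of the difference was 0.058 and 0.057. Of the 28 members, 17 had a mean above 0 and 11 below, against 5378 above and 5731 below among the 11109 tested genes. In 1 member the difference was above 0 in 4 of 4 lines, against 8.3% of all tested genes, and in 3 it was below 0 in 4 of 4 lines, against 8.77%.

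SLC25A15 had a mean intensity of 132 ± 69.8 in ShMI arrays and 159 ± 92.9 in control arrays (SD, n = 4 each). The difference of its log2 values was -0.24 with a moderated standard error of 0.064 (limma). It lay below 0 in each line, at -0.18 for KMS11, -0.20 for KMS18, -0.20 for KMS34 and -0.37 for the OPM2 line. It did not pass over all genes (limma, unadjusted p = 0.00311, adjusted p = 0.297). An exact two-sided permutation test that exchanged ShMI and control within lines gave p = 0.125, the smallest that 4 lines allow. Any member with the same sign in 4 of 4 lines gets this value, as SLC68A1, SLC38A12 and SLC2A1-DT also did. Leaving out 1 line gave differences from -0.26 to -0.19, which must lie below 0 when each line does. Taken over the 4 lines, the ShMI and control levels overlapped. The span of the line means was 1.87 log2 units.

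Other members below 0 in 4 of 4 lines were SLC68A1, with a mean log2 difference of -0.11 (SE 0.0626, limma adjusted p = 0.679), and SLC38A12, with -0.04 (SE 0.0609, 0.882). SLC2A1-DT was the member above 0 in 4 of 4 lines, with 0.11 (SE 0.0623, 0.685). The brightest member, SLC71A2, had -0.13 (SE 0.0725, 0.679), with -0.13 for KMS11, -0.34 for KMS18, 0.05 for KMS34 and -0.08 for the OPM2 line. Its paralog SLC71A1 had 0.07, with 0.06 for KMS11, 0.17 for KMS18, 0.13 for KMS34 and -0.08 for the OPM2 line. Of the other carriers with a wide line span, SLC33A2 had -0.10, SLC49A4 0.04, SLC35F6 -0.03, SLC9D1 0.04 and SLC75A1 0.06 (limma, adjusted p = 0.729 to 0.916). SLC25A2, the ornithine carrier next to SLC25A15 in sequence, had 0.08, with 0.38 for KMS11, -0.22 for KMS18, 0.18 for KMS34 and -0.01 for the OPM2 line. SLC61A1 had the mean nearest to 0, at 0.00067.

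**Figure D4:**
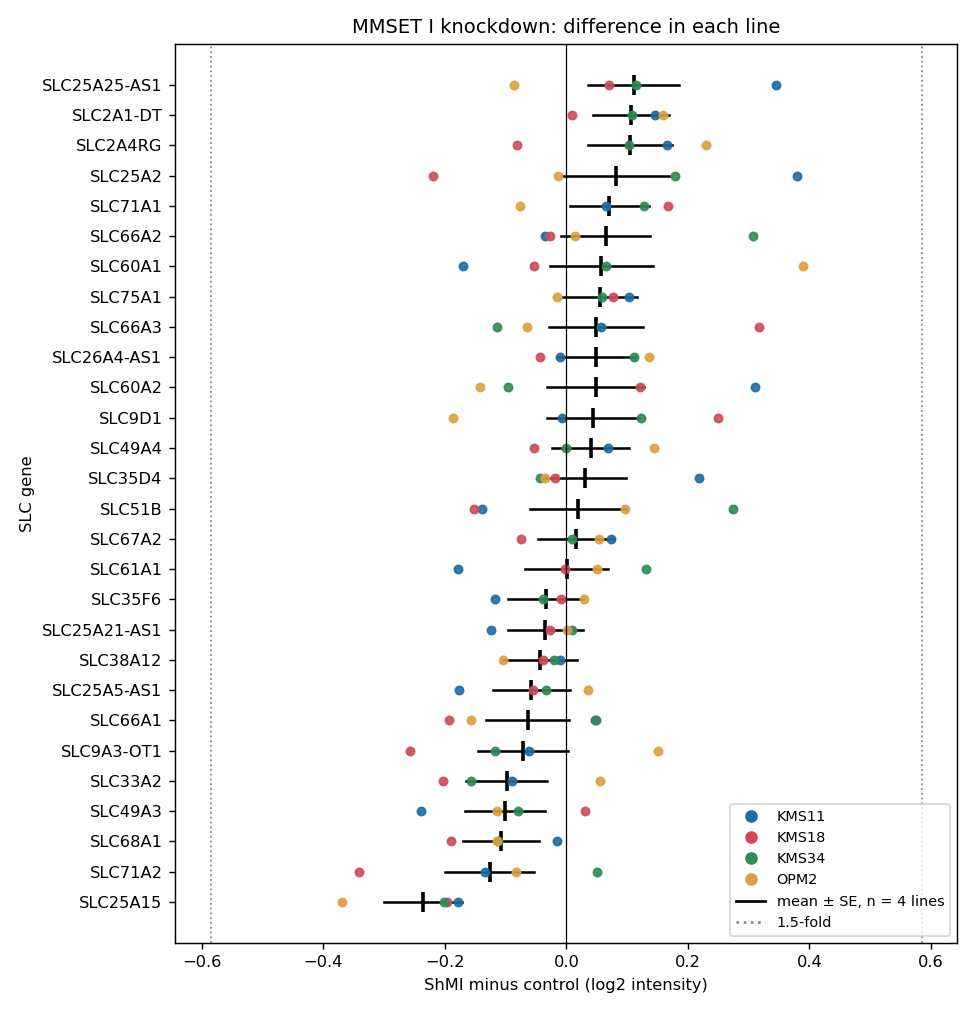
For each SLC gene the points give the ShMI minus control difference of each line in log2 intensity, sorted by mean. The black bar is the mean over 4 lines ± limma's moderated SE, which also draws on the spread of all tested genes. The dotted lines mark 1.5-fold, which no point reaches, and SLC25A15 lies lowest with 4 points below 0.

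Within each line there was 1 ShMI and 1 control array, so the following differences have no test. In 0 of the 28 members did ShMI and control differ 1.5-fold or more in any of the 4 lines. Among all tested genes the share at least 1.5-fold higher or lower was 0.27% and 0.243% for KMS11, 0.045% and 0.081% for KMS18, 0.117% and 0.135% for KMS34, and 0.09% and 0.099% for OPM2. In KMS11 the member with the highest difference was SLC25A2 (0.38 log2 units, 1.30-fold) and the one with the lowest SLC49A3 (-0.24). In KMS18 these were SLC66A3 (0.32) and SLC71A2 (-0.34), in KMS34 SLC66A2 (0.31) and SLC25A15 (-0.20), and in OPM2 SLC60A1 (0.39) and SLC25A15 (-0.37). Differences below 0 were found for 16 members with KMS11, 20 with KMS18, 12 with KMS34 and 14 with OPM2, that is 57.1%, 71.4%, 42.9% and 50% of them. The same shares over all tested genes were 50.5%, 49.1%, 53.4% and 49.4%.

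Related genes came from lists of other transporters and of nutrient sensing. Of 50 transporters without an SLC symbol, 25 were tested, of which 23 passed the F test between lines (75.7% of all tested genes did) and 0 passed for the knockdown (0.117%). At an unadjusted p under 0.05, which 8.4% of all tested genes reached, were 2 of them, both higher: MAGT1, a magnesium transporter and subunit of the glycosylation machinery (log2 difference 0.16, limma adjusted p = 0.545), and NIPAL2, a relative of magnesium transporters (0.16, 0.593). The list had a median difference of -0.014. Of 37 carrier partners and nutrient sensing genes, 26 were tested, 22 passed between lines (75.7% of all tested genes) and 0 for the knockdown (0.117%). Their median difference was -0.0096, and 4 were higher and 2 lower at an unadjusted p under 0.05 (8.4% of all tested genes in either direction). Lysosomes report amino acid supply through RAG GTPases, and the list holds 4 genes of this family. RRAGC and RRAGD were above 0 in 4 of 4 lines, RRAGB above 0 in 3 and RRAGA below 0 in 4. Outside the RAG family, SESN1 of the list was also above 0 in 4 of 4 lines, and NPRL2 and FNIP1 below 0 in 4 of 4. Over all tested genes 8.3% were above 0 and 8.77% below 0 in 4 of 4 lines. RRAGD had an intensity of 466 for KMS11, 763 for KMS18, 600.2 for KMS34, and 957 for the OPM2 line in the ShMI arrays, against 377 for KMS11, 668 for KMS18, 553 for KMS34, and 748 for OPM2 in the control arrays. The log2 difference of RRAGD was 0.24 and that of RRAGC 0.24, and neither passed over all genes (limma, adjusted p = 0.295 and 0.282). That of RRAGB was 0.14 and that of RRAGA -0.15, and these did not pass either (adjusted p = 0.651 and 0.593). BSG, which escorts monocarboxylate carriers to the cell surface, had a difference of -0.05 and spanned 1.49-fold between lines (adjusted p = 4.24e-04). Of 23 ion pumps 2 were tested, ATP13A1 and ATP13A2. Both passed between lines (75.7% of all tested genes) and neither for the knockdown (0.117%). The lists of ABC transporters and of ATF4-dependent transporters had 0 named rows and are not analysed here.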

How the data were processed

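Gene expression was measured on 8 Affymetrix GeneChip Human Gene 2.0 ST arrays. The authors deposited linear intensity values for 44629 rows, analysed in GeneSpring per the series text. Background correction, normalization and summarization are not given in the sources used here. Medians of the arrays lay between 49.3 and 53.5 and upper quartiles between 108 and 109. If arrays were scaled to each other, a shift shared by all genes cannot be seen. The small number of arrays limits the precision, and 0 columns were left unused.

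Log2 of the intensities was taken. Of the rows, 15835 had 1 platform symbol, 0 several and 28794 none, and 0 symbols changed through gene identifiers against RefSeq (GRCh38.p14). The 14812 genes were each represented by the brightest row (651 had several rows, no member among them). Genes under the 25th percentile of mean log2 (an intensity of 46.7) were left out, and 11109 were tested. limma 3.58.1 (R 4.3.3) was fitted to all of them with the 4 lines and ShMI or control as terms. It gave the knockdown test, the F test between lines and 6 line contrasts, each adjusted by Benjamini-Hochberg, with a threshold of 0.05. The residual of a gene is the spread of its 4 knockdown differences. limma draws it toward a value estimated from all tested genes. The standard errors and p-values of the fit use this moderated spread. The fit was tested on simulated data with independent noise and planted knockdown differences larger than the mean difference of any member. It does not show whether differences of the size seen in the members would be found. The labels pair the arrays by cell line. Deviations of the ShMI and control arrays from their group means correlated at 0.926 to 0.932 within a line and at -0.135 at most between lines. Subtracting the group mean by itself pushes the correlations between lines below 0.

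Members, gene lists and tests were chosen with earlier results of these data known, and the grouping by role and the list of arginine enzymes were made after values were seen, since the class list did not hold the newer families. Carriers such as SLC2A1 and SLC7A11, which were to be named in any case, have no named row and are not analysed here. Genes were named as the brightest, the most and least variable between lines, those with the same sign in 4 lines, and those nearest the limit, and here the remaining members are named as well. Alternatives were quantile normalization, median centring, other brightness filters, the mean of rows, leaving out lines in turn, the knockdown fit without the line or with it as a random effect, a trended robust fit and a member limit of 94.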

Additional observations from a re-analysis of the deposited data

Results flagged for a closer look

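For each member the 4 knockdown differences, the 4 ShMI levels and the 4 control levels were examined for a line far from the other 3, in 84 sets of 4 values. A gap past Dixon's 95% critical value was found in 4, and chance alone gives about 1 in 20, or 4.2 of 84. The control level of SLC75A1 in KMS11 was 457.9, against 278 to 300.4 in the other control arrays. The ShMI minus control log2 difference was 0.307 for SLC66A2 in KMS34, 0.2189 for SLC35D4 in KMS11 and -0.3688 for SLC25A15 in OPM2. For SLC25A15 the difference in the other 3 lines lay between -0.20 and -0.18, so that its 4 lines share a direction. For SLC66A2 the other 3 lines lay between -0.03 and 0.01, and for SLC35D4 between -0.04 and -0.02.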

How the results depend on the processing

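The count of members past the F test between lines was 21, and 17 to 21 under the alternatives. With KMS11 left out it was 17, with KMS18 left out 18, with OPM2 left out 19 and with KMS34 left out 20. Some alternatives tested fewer members: 20 of 21 passed with the filter at the 50th percentile and 19 of 20 with the member limit of 94. Of the 21, 11 passed under every alternative that tested them. The shares of all tested genes under the alternatives were not counted. The count with a span of at least 2-fold was 5, and 3 with quantile normalization, where SLC35F6 and SLC49A4 fell under 2-fold at 0.88 and 0.96 log2 units. Leaving out 1 line gave 3 to 4 members with that span, and a span over fewer lines cannot be wider. The count of members with 1 line at least 2-fold above each other line was 0, and 0 to 2 when 1 line was left out (SLC25A15 and SLC33A2 without KMS18, SLC33A2 without KMS34). That with 1 line at least 2-fold below was 0, and 0 to 1 when a line was left out (SLC25A15 without KMS34, SLC33A2 without KMS11 or without OPM2). With a line left out, both rules compare each line with fewer others and so ask for less. The shares of all tested genes when a line is left out are not given here. For the knockdown, 0 members were called higher and 0 lower under all alternatives, also with no replicate block (0 and 0) and with a random replicate block (0 and 0, at a consensus correlation of 0.87); no other call was run without the block. No member was 1.5-fold different within a line under any alternative tried. The knockdown difference of SLC25A15 stayed below 0 in all settings, with adjusted p from 0.173 to 1. With 4 lines kept, 216 differences held their sign and 1 did not, that of SLC61A1 with medians centred (-0.0064). Most of these could not change. Only quantile normalization and median centring alter the values, and the other settings leave each difference as it was. Leaving out 1 line turned the sign in 12 cases and held it in 100, 0 of them called, with ranges of -0.0181 to 0.181 for SLC25A2, -0.0321 to 0.0552 for SLC35D4, -0.065 to 0.0769 for SLC51B, -0.0526 to 0.133 for SLC60A1, -0.0389 to 0.112 for SLC60A2, -0.043 to 0.0604 for SLC61A1, -0.0162 to 0.0977 for SLC66A2, -0.0405 to 0.103 for SLC66A3, -0.00372 to 0.0455 for SLC67A2, -0.0242 to 0.122 for SLC9D1. The cause was not tested. The lowest value of any array was 18.9, and with no detection calls it is unknown how far the dim members stood above background.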

Other observations

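LETM1, a mitochondrial inner membrane protein linked to potassium-proton exchange, belongs to the list of transporters without an SLC symbol and was singled out after its values were seen. In GRCh38 order it lies between FGFR3 and NSD2. LETM1 had an intensity of 202 for KMS11, 227 for KMS18, 1096 for KMS34, and 178 for the OPM2 line in the ShMI arrays, against 181 for KMS11, 254 for KMS18, 1139 for KMS34, and 187 for OPM2 in the control arrays. Both KMS34 arrays were above the other 6. KMS34 exceeded the next line, KMS18, 4.65-fold (limma contrast, adjusted p = 3.70e-09) and the lowest, OPM2, 6.12-fold. The knockdown difference of LETM1 was -0.03 (adjusted p = 0.932).

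Enzymes of ornithine and arginine metabolism were looked at after the values of SLC25A15 were seen, so they support nothing. Of 24 genes, 17 were tested, 14 passed the F test between lines (75.7% of all tested genes did) and 0 passed for the knockdown (limma, 0.117%). At an unadjusted p under 0.05, 1 was higher and 1 lower (8.4% of all tested genes in either direction). OAT, which converts ornithine in mitochondria, spanned 3.63-fold with its highest line KMS34 and its lowest KMS18. ASS1 had an intensity of 155 for KMS11, 1811 for KMS18, 3069 for KMS34, and 248 for the OPM2 line in the ShMI arrays, against 191 for KMS11, 1690.4 for KMS18, 3157 for KMS34, and 231 for OPM2 in the control arrays. ASS1, which makes argininosuccinate from citrulline, spanned 18.1-fold (F test, adjusted p = 2.88e-11). KMS34 and KMS18 were high and OPM2 and KMS11 low for ASS1, which is not the order of SLC25A15, for which OPM2 was highest. Of the list, PYCR1, which makes proline in mitochondria, had a knockdown difference of -0.21 (adjusted p = 0.478) and GATM, which transfers the amidino group of arginine, one of 0.19 (0.452).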
